A study of Homo sapiens with 6 samples.

Results

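The matricellular and microfibril genes are a set of 10 genes whose products sit around cells as signalling or scaffold proteins of the extracellular matrix. They were taken by symbol from a deposited table of 25268 genes, and all 10 were found: POSTN, SPARC, TNC, THBS1, THBS2, FBN1, FBN2, FBLN1, FBLN5 and MGP. RNA was measured in 6 libraries of A673, an established Ewing sarcoma cell line driven by the fusion of EWSR1 with FLI1. The cells had been transfected for 72 h with esiRNA, an enzymatically prepared pool of short interfering RNAs. The control group received esiRNA against GFP, a sequence the cells do not carry (esiGFP), and the other groups received esiRNA against FLI1 (esiFLI1, for knockdown of EWS-FLI1) or against USP9X (esiUSP9X), with 2 libraries in each. All 3 groups are this 1 line in the same medium with the same transfection, so nothing here covers other Ewing sarcoma lines.

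Matricellular proteins are secreted into the matrix but mainly tune how cells adhere and respond to growth factors, rather than bearing load. POSTN, SPARC, TNC and the thrombospondins THBS1 and THBS2 belong to this class. Microfibrils are long polymers of fibrillin, encoded by FBN1 and FBN2, that carry elastin and hold latent TGF-beta in the matrix; the fibulins FBLN1 and FBLN5 bind these fibres, and MGP, matrix Gla protein, keeps soft tissue from mineralising. EWS-FLI1 is a transcription factor that activates some genes and represses others, and mesenchymal matrix genes are among those known to be held low by it. USP9X is a deubiquitinase, which removes ubiquitin from other proteins, and the series asks whether it keeps the fusion protein stable.

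Values are FPKM, fragments scaled to transcript length and to the mapped total of the library, which lets genes be compared within a library. The most abundant gene, MIR6723, held 33.2% to 50.9% of a library's FPKM. Comparisons of other genes between libraries depend on that share. Summed over genes, a library held 781732 to 907926 FPKM, and the read depth behind a value is unknown. FLI1 RNA read 24.1 and 36.4 FPKM with esiGFP, 12.7 and 14.1 with esiFLI1, and 24.98 and 31.9 with esiUSP9X (esiFLI1 against esiGFP: log2 difference -1.09, limma adjusted p = 0.13, and 4.4e-04 with the replicate number as a block). USP9X RNA read 20.6 and 26.5, 26.2 and 37.7, and 5.31 and 7.10 FPKM in the same order (esiUSP9X against esiGFP: log2 difference -1.77, limma adjusted p = 1, blocked 4.5e-04). Of 10 Ewing sarcoma markers, 9 passed the filter on low values and CD99 was listed at 0 in all 6 libraries. The sum of the 10 ran from 2101 to 2312 FPKM in esiGFP, from 994 to 1081 in esiFLI1 and from 1984 to 2020 in esiUSP9X. CAV1 held most of that sum (1191 and 1344 FPKM in esiGFP, 582 and 637 in esiFLI1). The log2 differences of the 9 in esiFLI1 against esiGFP ran from -2.09 to -0.64. EEF1A1, which every cell uses, had a listed value of 0 in the esiGFP pair but 2928 and 3160 FPKM after esiFLI1, so zeros in this table are not taken as missing RNA. None of the 10 matrix genes was listed at 0 in any library.

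Promoter sequence was available for 9 of the 10 genes from RefSeq (GRCh38.p14), as windows from 250 bases before to 50 bases after a gene's start. FBLN5 had 2 windows, which makes 10 in all. Because FLI1 and the fusion bind DNA with the ETS domain, the windows were searched for GGAA, the core of ETS sites, on both strands, where the opposite strand reads TTCC. Every member window held it, and so did 95.5% of 35116 promoters of that length. The tandem GGAAGGAA, which contains the single core 2 times, was in 3 windows, those of TNC (at -178 from the start), FBN2 (at -209) and 1 of FBLN5 (at -167), and in 3.67% of all promoters. POSTN and TNC, FBN1 and FBN2 are shown because the first has the largest log2 difference of the set, TNC and FBN2 hold the tandem core, and FBN1 is the fibrillin called without a block. They lie at chr13:37598719-37599018, chr9:115118108-115118407, chr15:48644921-48645220 and chr5:128538196-128538495, all on the minus strand, and are written 5′ to 3′ with GGAA and TTCC in capitals.
POSTN: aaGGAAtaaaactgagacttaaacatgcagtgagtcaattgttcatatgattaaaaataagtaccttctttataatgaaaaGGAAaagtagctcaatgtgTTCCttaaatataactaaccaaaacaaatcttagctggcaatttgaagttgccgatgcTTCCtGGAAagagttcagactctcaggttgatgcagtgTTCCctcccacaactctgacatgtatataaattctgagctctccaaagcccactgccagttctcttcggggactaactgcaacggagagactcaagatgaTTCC
TNC: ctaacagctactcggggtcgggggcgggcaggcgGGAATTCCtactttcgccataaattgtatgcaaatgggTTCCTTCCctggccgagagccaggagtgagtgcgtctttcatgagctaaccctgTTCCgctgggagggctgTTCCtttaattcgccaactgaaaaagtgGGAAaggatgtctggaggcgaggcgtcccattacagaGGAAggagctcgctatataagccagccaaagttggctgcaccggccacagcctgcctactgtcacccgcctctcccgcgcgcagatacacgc
FBN1: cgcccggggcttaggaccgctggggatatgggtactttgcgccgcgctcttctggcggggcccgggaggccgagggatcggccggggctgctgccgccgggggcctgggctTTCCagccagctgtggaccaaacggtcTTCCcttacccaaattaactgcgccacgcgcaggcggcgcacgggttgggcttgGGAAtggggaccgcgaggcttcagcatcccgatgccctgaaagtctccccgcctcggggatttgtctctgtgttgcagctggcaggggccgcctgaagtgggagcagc
FBN2: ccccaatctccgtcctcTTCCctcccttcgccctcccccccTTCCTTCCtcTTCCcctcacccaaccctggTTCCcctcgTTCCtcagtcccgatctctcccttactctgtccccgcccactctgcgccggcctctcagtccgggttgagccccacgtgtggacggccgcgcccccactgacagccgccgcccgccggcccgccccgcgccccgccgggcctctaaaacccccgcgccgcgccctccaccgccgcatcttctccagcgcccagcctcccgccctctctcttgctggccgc
POSTN held 7 single cores, TNC 8, FBN1 3 and FBN2 6, against a median of 3 over all promoters. The windows not shown held 5 for SPARC, 4 for THBS1, 3 for THBS2, 1 for FBLN1 and 5 in each FBLN5 window. Of the other motifs searched on both strands, TGANTCA (the AP-1 site, 7.71% of promoters) was in the POSTN window alone. GGAATG (bound by TEAD factors, 14% of promoters, and overlapping the ETS core) was in 4 windows, CAGACA (bound by SMAD factors, 16.9%) in 2, and TATAAA (the TATA box, 11.5%) in 3. These matches are letters in a short window, and no binding was measured.

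In esiFLI1, 5 of the 8 genes that passed the filter were higher than in esiGFP by limma's test, and none was lower. They were POSTN, MGP, FBN1, SPARC and TNC. Over all 12169 genes tested, 2.58% were called higher and 0.23% lower. The median log2 difference of the 8 was 2.13, and that of all genes tested was -0.03. MGP passed the filter only through its esiFLI1 libraries and so had to differ, and THBS1 and THBS2 did not pass, so these counts describe the genes that were tested and lend no support of their own. With the replicate number as a block, all 8 were called higher, where 20.6% of all genes were higher and 21.6% lower. In a culture sampled in bulk, more RNA per cell and more cells that carry it cannot be told apart.

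**Figure D1:**
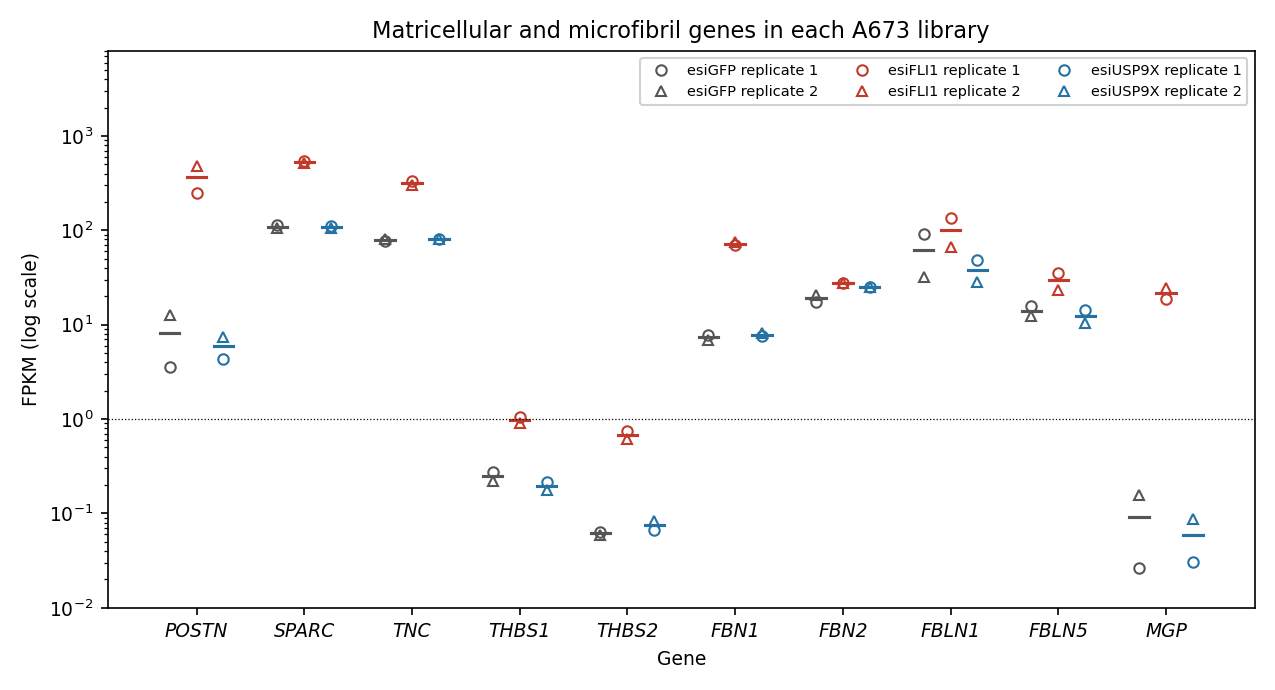
FPKM of the 10 genes (log axis) in each library, with circles for replicate 1, triangles for replicate 2 and a bar at the group mean; the dotted line marks 1 FPKM. The esiFLI1 libraries lie above both other groups for every gene except FBLN1, where they overlap esiGFP. MGP, THBS1 and THBS2 are among these genes with the limits given in the text. Over all genes tested, 19.8% had esiFLI1 libraries wholly above esiGFP and 21.1% wholly above esiUSP9X. The share above both at once was not counted. For 7 of the 10 genes the esiUSP9X and esiGFP libraries overlap, and 16.6% of all genes tested did not overlap there in either direction.

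POSTN encodes periostin, which binds integrins and other matrix proteins and is made by fibroblasts in healing tissue. It was at 3.59 and 12.7 FPKM in esiGFP, 252 and 481 in esiFLI1, and 4.35 and 7.42 in esiUSP9X. The lower esiFLI1 library was far above the highest library of either other group, and replicate 2 was the higher one in each group. The esiGFP mean was 8.17 ± 6.47 FPKM and the esiFLI1 mean 366 ± 162 (SD, n = 2 libraries), a 44.8-fold rise, with a log2 difference of 5.46 on the log2(FPKM + 1) scale (SE 0.62, limma adjusted p = 0.022). By mean level POSTN went from rank 7313 to rank 180 of all genes listed, and by log2 difference it ranked 7 of the 12169 tested. Within replicates, the log2 difference was 5.78 in the first and 5.13 in the second.

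SPARC encodes a calcium-binding glycoprotein that binds collagen and restrains cell spreading, and it was the most abundant of the 10 genes in every group. Its libraries read 113 and 106 FPKM in esiGFP, 548 and 513 in esiFLI1, and 110 and 106 in esiUSP9X. The replicates differed little, and the esiFLI1 pair stood apart from the other 4 libraries. SPARC rose 4.83-fold in esiFLI1 (log2 difference 2.26, SE 0.16, limma adjusted p = 0.0077), with 2.26 in each replicate, and moved from rank 792 to rank 125.

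TNC encodes tenascin-C, a large hexameric protein of embryonic and wounded tissue that loosens adhesion to fibronectin. It was at 76.4 and 81.5 FPKM in esiGFP, 330 and 303 in esiFLI1, and 80.9 and 80.9 in esiUSP9X. The control and esiUSP9X libraries lay within a few FPKM of each other and well below both esiFLI1 libraries. TNC rose 4.01-fold in esiFLI1 (log2 difference 1.99, SE 0.16, limma adjusted p = 0.0096). The FPKM of all 10 genes summed to 326 and 273 in esiGFP, 1416 and 1517 in esiFLI1, and 291 and 268 in esiUSP9X. SPARC and TNC together held most of that sum in every library. POSTN was a large part of it only in esiFLI1, and FBLN1 was above POSTN in every esiGFP and esiUSP9X library.

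The thrombospondins, which bind the receptors CD36 and CD47 and curb blood vessel growth, were the lowest members with esiFLI1. THBS1 was at 0.275 and 0.223 FPKM in esiGFP, 1.05 and 0.916 in esiFLI1, and 0.213 and 0.176 in esiUSP9X. THBS2 was at 0.0642 and 0.0593 FPKM in esiGFP, 0.747 and 0.619 in esiFLI1, and 0.0664 and 0.0838 in esiUSP9X. Both esiFLI1 libraries lay above the other 4 for each gene, with group means 3.95 and 11.1 times the control means. THBS1 reached 1 FPKM in 1 library, 1 fewer than the filter asks, and THBS2 in 0. In the fit with no filter, which tests them, the log2 difference was 0.67 for THBS1 (SE 0.06, limma adjusted p = 0.015) and 0.66 for THBS2 (SE 0.04, limma adjusted p = 0.010). That fit called 519 genes higher in esiFLI1 and 39 lower. The added pseudocount compresses such low values: with 0.1 FPKM in place of 1 the differences were 1.63 and 2.27. It also narrows the spread between libraries, on which the SE and p rest.

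Of the fibrillins, FBN1 was called higher in esiFLI1 without the block and FBN2 was not; the difference between the genes was not tested. FBN1, the main fibrillin of adult microfibrils, was at 7.74 and 6.95 FPKM in esiGFP, 69.2 and 75.8 in esiFLI1, and 7.55 and 8.11 in esiUSP9X. It rose 9.87-fold (log2 difference 3.14, SE 0.18, limma adjusted p = 0.0058), with non-overlapping libraries and little spread within any group. FBN2, the fibrillin of developing tissue, was at 17.6 and 20.7 FPKM in esiGFP, 27.4 and 27.8 in esiFLI1, and 25.1 and 25.4 in esiUSP9X. Both knockdown groups thus lay above both control libraries. In the control FBN2 was the more abundant fibrillin, and in esiFLI1 FBN1 was. FBN2's log2 difference in esiFLI1 was 0.51 (SE 0.18, limma adjusted p = 0.26), and the blocked fit called it (SE 0.10, limma adjusted p = 0.0061). Without esiGFP 1 its blocked adjusted p was 0.063, in a fit that gave every gene of like mean the same spread.

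The fibulins, calcium-binding proteins of elastic fibres and basement membranes, differed between replicates in both genes. FBLN1 was at 91.1 and 32.4 FPKM in esiGFP, 135 and 66.9 in esiFLI1, and 48.2 and 28.6 in esiUSP9X. Replicate 1 was the higher in each group, and the esiGFP and esiFLI1 libraries overlapped. Its log2 difference in esiFLI1 was 0.79 (SE 0.61, limma adjusted p = 0.66), and it was 1.52 without esiGFP 1, 0.059 without esiGFP 2, 0.29 without esiFLI1 1 and 1.29 without esiFLI1 2. FBLN5, which elastic fibre assembly needs, was at 15.6 and 12.28 FPKM in esiGFP, 35.7 and 23.2 in esiFLI1, and 14.3 and 10.5 in esiUSP9X. Its esiFLI1 libraries lay above the other 4, with a log2 difference of 1.004 (SE 0.30, limma adjusted p = 0.19). With the block both were called, FBLN1 at an adjusted p of 0.0065 (SE 0.16) and FBLN5 at 3.7e-04 (SE 0.11) in limma. The blocked call of FBLN1 ended when esiFLI1 1 was left out (adjusted p = 0.062), and likewise esiFLI1 2 (0.097). Over the alternatives, apart from the blocked fits without an esiGFP library, limma's adjusted p for FBLN1 spanned 0.0065 to 0.97.

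MGP encodes a small protein that vitamin K-dependent carboxylation makes able to bind calcium. It was at 0.0264 and 0.158 FPKM in esiGFP, 18.6 and 24.3 in esiFLI1, and 0.0309 and 0.0869 in esiUSP9X. The control and esiUSP9X libraries were far below 1 FPKM, while MGP in esiFLI1 ranked 3999 of all genes listed. The group means differed 232-fold, a ratio that rests on those very low control values, and the log2 difference was 4.35 (SE 0.19, limma adjusted p = 0.0052) with a pseudocount of 1 FPKM and 6.88 with 0.1 FPKM. By log2 difference MGP ranked 10 of the genes tested, the next of the set after POSTN.

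**Figure D2:**
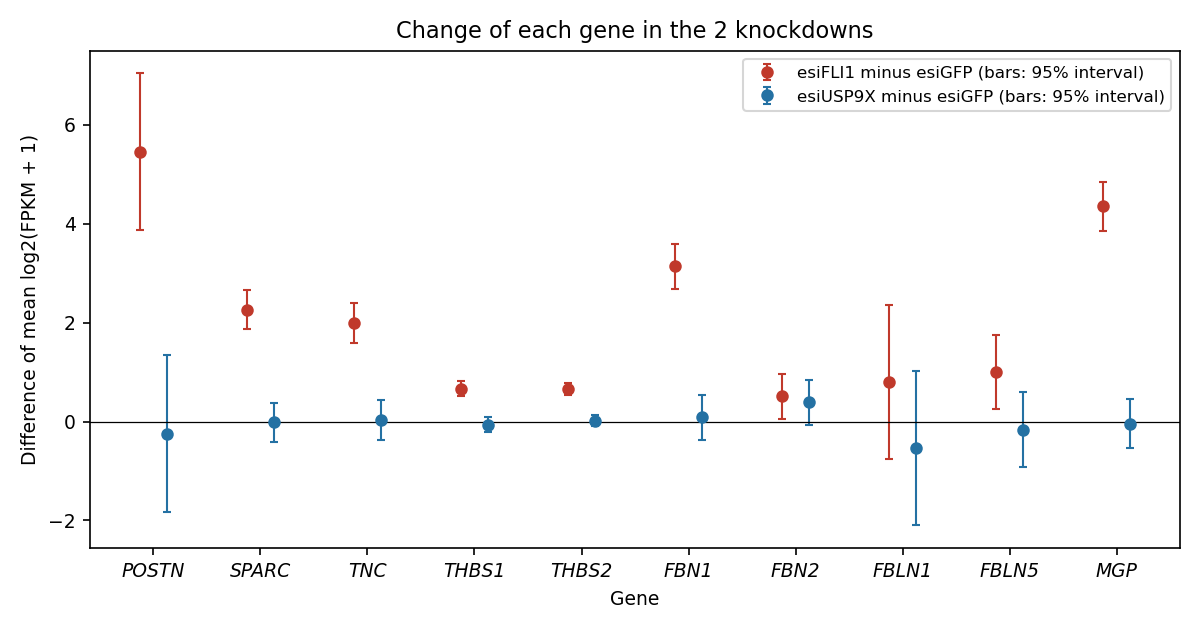
Difference of mean log2(FPKM + 1) for esiFLI1 (red) and esiUSP9X (blue) against esiGFP, with 95% intervals from limma without a block; THBS1 and THBS2 come from the fit with no filter. POSTN, MGP, FBN1, SPARC and TNC are well above 0 in esiFLI1, all esiUSP9X intervals include 0, and those of POSTN and FBLN1 are the widest.

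The unblocked calls rest on few degrees of freedom. Leaving out either esiGFP 1 or esiGFP 2 ended all 5 (0 called, limma adjusted p from 0.053 to 0.11), and leaving out esiFLI1 1, esiUSP9X 1 or esiUSP9X 2 left 3, with POSTN and TNC lost. Without esiFLI1 2, POSTN alone was lost (adjusted p = 0.090). A group left with 1 library is assumed in these fits to vary like the others, which alone give the spread. In the blocked fit the 5 stayed called without any 1 of the esiFLI1 or esiUSP9X libraries. Blocked fits without an esiGFP library ignore the spread of single genes and are not read for calls. The log2 differences of the 5 kept their direction in every alternative, from 4.67 to 6.25 for POSTN, 2.22 to 2.47 for SPARC and 1.90 to 2.14 for TNC.

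Of the 8 genes tested, 7 had esiFLI1 libraries wholly above those of esiGFP, as had 19.8% of all genes tested. The plot of all genes shows where the 8 fall.

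**Figure D3:**
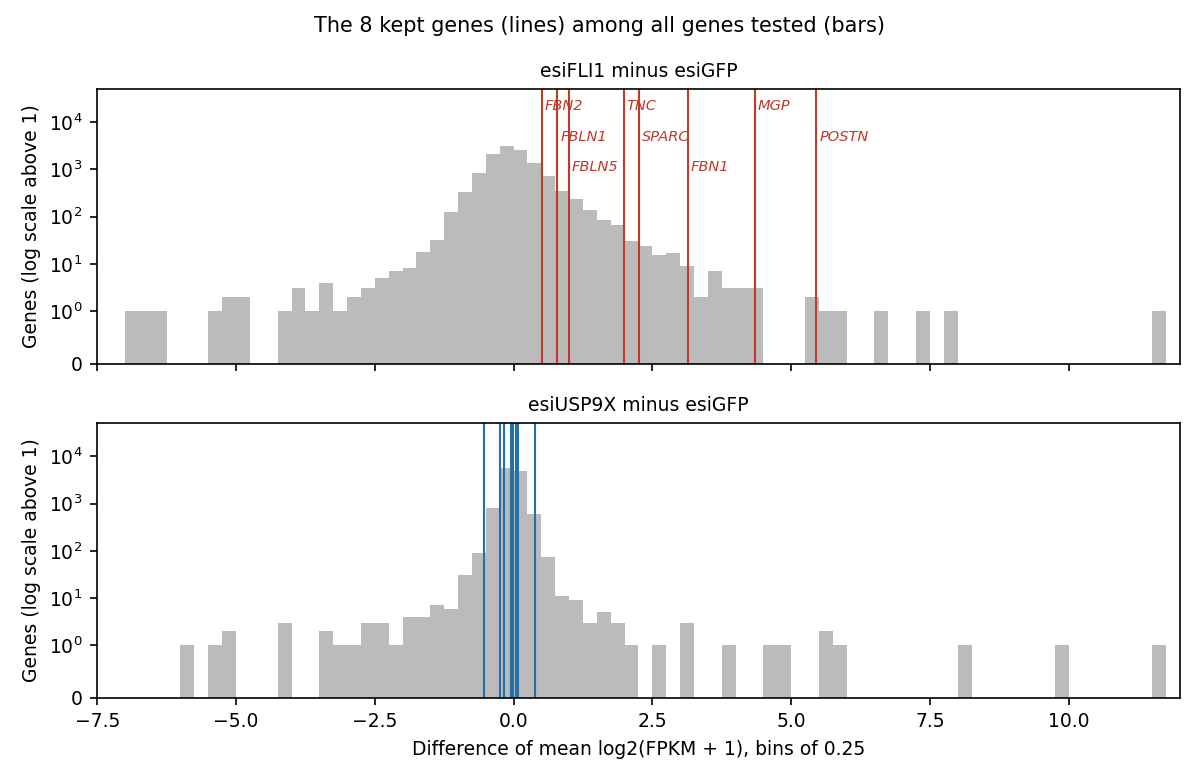
Number of genes (log axis above 1) by difference of mean log2(FPKM + 1), in bins of 0.25, with a line for each of the 8 genes tested. In esiFLI1 the lines run from FBN2 at 0.51 to POSTN at 5.46, and in esiUSP9X from FBLN1 at -0.54 to FBN2 at 0.39. The esiUSP9X bin that holds FBLN1 has 88 genes, and the bins on either side of 0 have 5611 and 4881.

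None of the 8 genes passed the test in esiUSP9X, where few genes of any kind did. Without a block limma called 0 of the 8 genes against esiGFP, and 0 with the block, where 0.0247% and 0.238% of all genes were called in either direction. USP9X itself, the target, was not called without the block at a log2 difference of -1.77. The counts of 0 are near the shares over all genes and lend no support of their own. Over all genes, 114 had an unadjusted p under 0.05 without the block and 1321 with it. Of the 8, none did without the block, and FBN2 and FBLN1 did with it. SPARC differed by -0.02 on the log2 scale (95% interval -0.41 to 0.38), TNC by 0.03 (-0.37 to 0.44), FBN1 by 0.08 (-0.37 to 0.53) and MGP by -0.04 (-0.53 to 0.45). The upper bounds lie below the lower bounds of the esiFLI1 intervals for these 4 genes. POSTN (-0.24, interval -1.83 to 1.34), FBLN1 (-0.54, -2.10 to 1.02) and FBLN5 (-0.16, -0.91 to 0.59) were measured less tightly, and in the blocked fit their intervals were -0.69 to 0.21, -0.91 to -0.17 and -0.41 to 0.08.

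FBN2 had the largest upward difference in esiUSP9X. Its log2 difference in esiUSP9X was 0.39 (SE 0.18, limma adjusted p = 1, blocked adjusted p = 0.26 with an interval of 0.15 to 0.62), and it alone of the 8 had esiUSP9X libraries that did not overlap esiGFP, where 16.6% of all genes did so in either direction. It was 0.49 and 0.28 higher in the replicates. Both knockdowns are set against the same 2 control libraries, and the differences of 0.51 and 0.39 share them.

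Setting the knockdowns against each other gave the same order for the 5 called genes. The control libraries do not enter these differences but do enter their spread, and the esiFLI1 libraries are shared with the first comparison. POSTN, MGP, FBN1, SPARC and TNC were lower in esiUSP9X than in esiFLI1 by limma (5 of 8, where 2.66% of all genes were called lower). The log2 differences were -5.70 (SE 0.62), -4.39 (SE 0.19), -3.06 (SE 0.18), -2.28 (SE 0.16) and -1.95 (SE 0.16), with adjusted p between 0.0041 and 0.019. With the controls left out of the fit the 5 stayed called, TNC narrowly (limma adjusted p = 0.0499). All 8 had non-overlapping libraries (21.1% of all genes were lower in this way). The block added FBLN1 (-1.33, adjusted p = 6.3e-04) and FBLN5 (-1.17, adjusted p = 1.9e-04), for 7 of 8 where 20.9% of all genes were lower, and left FBN2 uncalled (-0.12, interval without a block -0.57 to 0.33, blocked adjusted p = 0.37). Without a block the count fell to 0 without esiUSP9X 1 (limma adjusted p from 0.072 to 0.16), to 1 without esiUSP9X 2 (MGP), to 3 without esiFLI1 1 (POSTN and TNC lost) and to 4 without esiFLI1 2 (POSTN lost).

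Across genes, the difference between replicates varied with base composition. Over 11011 genes with a coding transcript in GENCODE, the log2 difference of replicate 1 from replicate 2, averaged over the 3 groups, correlated with the transcript's GC content (Spearman's rho 0.88 across genes of the same libraries, which are not independent replicates). FBLN1 has a GC content of 57.0% and was higher in replicate 1 by 1.06 on the log2 scale. POSTN has 39.0% and was lower in replicate 1 by 1.06, and FBLN5 (51.5%) was higher by 0.44. SPARC, TNC, FBN1, FBN2, THBS1 and THBS2, between 45.6% and 54.0%, differed by at most 0.09. For THBS1 and THBS2, near or below 1 FPKM in all libraries, the added pseudocount flattens this difference. Across genes, GC content had a rho of -0.16 with the difference of esiFLI1 from esiGFP and -0.17 with that of esiUSP9X. POSTN and MGP had the lowest GC content of the 10 genes, at 39.0% and 39.1%, and the part of GC content in their rise was not tested. MGP differed between replicates by -0.21. The pseudocount flattens that value too, since MGP read 0.0264 and 0.158 FPKM in the esiGFP replicates.

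**Figure D4:**
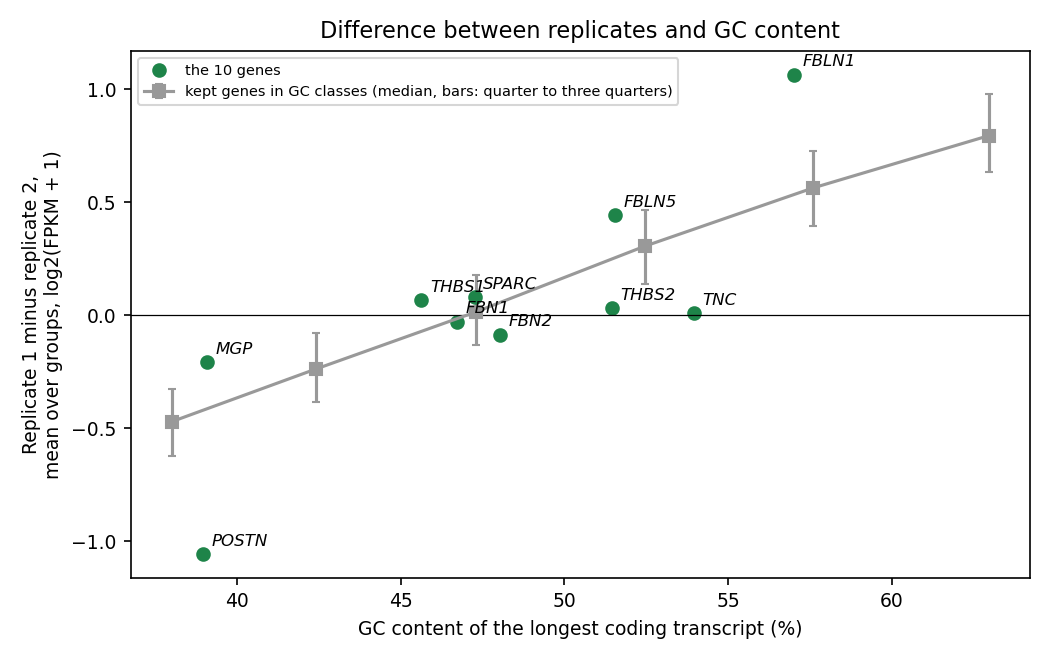
Replicate 1 minus replicate 2 in log2(FPKM + 1), averaged over groups, against the GC content of the longest coding transcript in percent, for the 10 genes (circles) and for all kept genes in 6 GC classes (squares: median, bars: from the lower to the upper quartile). FBLN1 and POSTN lie at 1.06 and -1.06, farther from 0 than the medians of their GC classes.

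Of the other matricellular genes tested, 4 also rose in esiFLI1. Of 20 listed, 8 passed the filter (median log2 difference 1.51). With the block 8 were higher, where 20.6% of all genes were. Without a block 4 were higher and 0 lower by limma, where 2.58% of all genes were higher. The 4 were SPP1, osteopontin, a phosphorylated integrin ligand of bone (1.08 and 1.20 FPKM in esiGFP, 13.1 and 19.6 in esiFLI1, log2 difference 2.99), TGFBI, a collagen-binding protein induced by TGF-beta (168 and 111 to 739 and 517 FPKM, 2.17), CYR61, a CCN protein (16.5 and 13.9 to 68.1 and 55.4 FPKM, 1.95), and the proteoglycan SPOCK1 (1.75). Their adjusted p lay between 0.0095 and 0.035. SMOC2, among the 8 but not these 4, passed the filter only through its esiFLI1 libraries and so had to differ. CTGF, a CCN protein like CYR61 and named after its values were seen, read 28.5 and 27.2 FPKM with esiGFP against 35.9 and 35.8 with esiFLI1 (log2 difference 0.35, adjusted p = 0.42). In esiUSP9X none of the 8 was called (0 in either fit), with log2 differences from -0.50 to -0.02.

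Of 25 partners in microfibrils and elastic fibres, 17 passed the filter, and 3 were higher and 0 lower in esiFLI1 (12 and 0 with the block, median 0.84). For this list and those below, the shares over all genes were 2.58% higher and 0.23% lower, or 20.6% and 21.6% with the block. LOX, which crosslinks elastin and collagen, went from 3.02 and 4.27 to 76.8 and 123 FPKM (log2 difference 4.42, limma adjusted p = 0.0077). LTBP1, which ties latent TGF-beta to fibrillin, and THSD4, a protein that promotes fibrillin-1 assembly, differed by 1.25 and 1.47 (limma adjusted p = 0.017 and 0.019). These 2 genes passed the filter only through their esiFLI1 libraries and so had to differ. LOXL1, a relative of LOX with the highest mean of the list apart from FN1, read 117 and 42.1 FPKM with esiGFP against 208 and 117 with esiFLI1 (1.14, adjusted p = 0.45, blocked 0.0017). MFAP2, a small microfibril protein, went from 41.7 and 17.6 to 111 and 48.7 FPKM (1.41, adjusted p = 0.35, blocked 1.9e-04; named after its values were seen). ELN, elastin itself, read 17.3 and 9.94 FPKM with esiGFP against 22.5 and 8.22 with esiFLI1 (0.06, adjusted p = 0.98; also named after its values were seen). FN1, fibronectin, had a listed 0 in the other 4 libraries beside 890 and 900 FPKM after esiUSP9X, and limma's call of it there is not read as a change.

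Of 20 receptors that bind these proteins, 15 passed the filter, with 3 higher and 0 lower in esiFLI1 (13 and 2 with the block, median 0.82), the 2 being LRP8 and VLDLR, named after their values were seen. Of the 15, 5 passed the filter only through their esiFLI1 libraries and so had to differ, and all 3 called receptors are among them, so this count lends no support of its own. ITGA8, whose dimer binds TNC, went from 0.178 and 0.185 to 3.69 and 4.34 FPKM (log2 difference 2.08, limma adjusted p = 0.0077). ITGA3, an integrin alpha chain, differed by 2.25 (adjusted p = 0.035) and CD36, a thrombospondin receptor, by 0.93 (adjusted p = 0.047), both from below 1 FPKM in the other 4 libraries. ITGB1, the integrin beta chain with the highest mean of the list, read 244 and 361 FPKM with esiGFP against 409 and 618 with esiFLI1 (0.76, adjusted p = 0.35, blocked 9.8e-04). ITGB5, next by mean, differed by 0.73 (adjusted p = 0.45, blocked 9.6e-04). Of 10 genes of mineralisation and vitamin K use around MGP, 7 passed the filter, and SPP1 was the only one called in limma's fit without a block (median 0.10, 2 higher and 0 lower with the block). VKORC1, which recycles vitamin K, differed by 0.16 (adjusted p = 0.96) and its relative VKORC1L1 by -0.18 (adjusted p = 0.86). GGCX, the carboxylase that modifies MGP and named after its values were seen, read 8.96 and 9.34 FPKM with esiGFP against 11.0 and 8.93 with esiFLI1 (0.10, adjusted p = 0.88). In esiUSP9X limma called 0 genes of the receptor and the mineral lists, with medians of 0.02 and -0.14, and 1 of the microfibril partners, FN1. These lists were drawn up with earlier results of these data known.

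**Figure D5:**
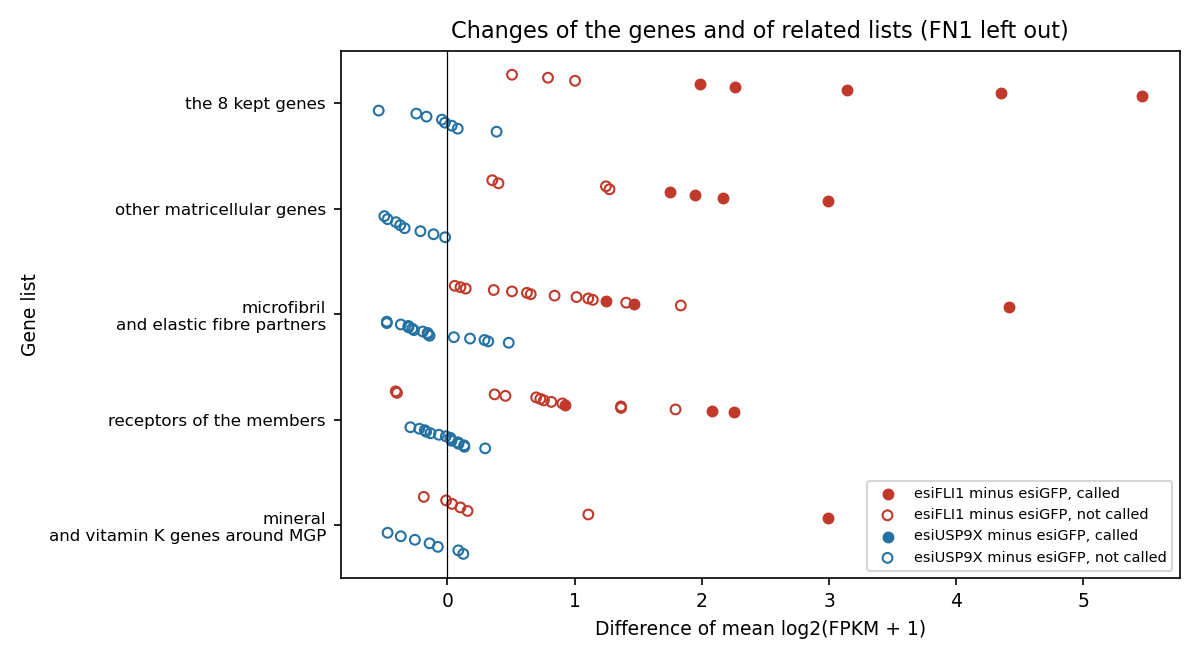
Difference of mean log2(FPKM + 1) for the 8 genes and the genes of 4 related lists that passed the filter, in esiFLI1 (red) and esiUSP9X (blue) against esiGFP; filled points were called by limma without a block. Red points lie mostly to the right of 0 in each list, with 5 of the 7 mineral and vitamin K genes above 0 and a median there of 0.10, and no blue point is filled; FN1 is left out.

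Markers of other cell types gave the following levels beside these rises. Fibroblast markers, which the matrix genes overlap in kind, summed to between 126 and 326 FPKM in esiGFP, 679 and 1527 in esiFLI1, and 158 and 302 in esiUSP9X over all 8, and 5 passed the filter (1 higher without a block, 5 with it). The 1 was FAP, which passed the filter only through its esiFLI1 libraries and is named after its values were seen. COL1A2 held most of that sum, and LUM and DPT were at most 1.19 and 0.344 FPKM in any library. Endothelial markers summed to 0.409 to 1.41 FPKM in esiGFP, 2.22 to 3.71 in esiFLI1 and 0.377 to 0.534 in esiUSP9X, with KDR alone of 8 past the filter, through its esiFLI1 libraries only. Blood cell markers (7 of leukocytes and HBB of red cells), mostly CD68, summed to 2.90 to 4.05, 4.72 to 8.29 and 1.97 to 2.29 FPKM in that order, with CD3E, of T cells, and HBB at 0 in all libraries. Epithelial markers summed to 0.401 to 0.897, 1.26 to 3.16 and 0.432 to 0.876 FPKM, with 4 of 8 at 0 in all (KRT5, KRT14, CDH1 and GRHL2). The part of other cell types in the result was not tested.

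The genes whose pattern over the 6 libraries was most like each member's, among 4406 kept genes with a log2 range of at least 1, were as follows. The closest was COL6A3 for TNC (Pearson r 0.9999), MATN2 for SPARC, PHLDB2 for POSTN, PDCD1LG2 for FBN1, FIBIN for MGP, SHISA4 for FBLN5 and NACAD for FBLN1, all with r of at least 0.998. For FBN2 it was KIT, at 0.963. With 6 libraries in 3 groups such values are common: 117 genes reached 0.99 with SPARC, 114 with FBN1, 111 with MGP, 100 with TNC, 36 with FBLN5, 24 with POSTN, 8 with FBLN1 and 0 with FBN2.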

How the data were processed

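RNA of 6 A673 libraries was sequenced. The labels' protocols give a stranded total-RNA kit with ribosomal depletion (input 2 µg) and single-end reads of 75 nt. The deposited values are FPKM made by the authors. The submitters' processing notes name TopHat, Cufflinks, Cuffdiff, hg19 and GRCh37. No version, annotation or strand setting was given in the sources, and values of overlapping or antisense genes are therefore uncertain. A stray last line was dropped (1), and 0 columns belonged to no sample. Low values (under 0.05 FPKM) showed no steps of single reads, with at most 3.82% of ratios between libraries in a bin of 0.01 log2, so depth stayed unknown.

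The filter kept 12169 genes that reached 1 FPKM in 2 or more libraries. On log2(FPKM + 1), limma 3.58.1 in R 4.3.3 (lmFit and trended eBayes) fitted 3 group means to all 6 libraries; tests were two-sided, p-values were adjusted by Benjamini-Hochberg over those 12169 genes, and 0.05 was the threshold. Fold changes on this scale understate low genes. The fit had 3 residual and 2.21 prior degrees of freedom. The labels do not say that replicates were separate cultures, so p-values measure the spread between these libraries, which may be technical. Deviations of same-numbered libraries correlated across genes at 0.647 (esiGFP, esiFLI1), 0.589 (esiGFP, esiUSP9X) and 0.644 (esiFLI1, esiUSP9X), each above 0.1, so the numbers were taken to pair the libraries, on the data's evidence and not the labels', and a second fit had the replicate number as a block (2 residual and 5.72 prior degrees of freedom). The fit without a block was tested on simulated data with independent noise in each library. That simulation lacked the shared deviations of same-numbered libraries and did not cover the blocked fit. The members and lists were chosen with earlier results of these data known. The named genes are the members, and from each list the called genes (up to 4) and the 2 with the highest mean FPKM, where results are given. GC content came from GENCODE v29 transcripts, matched by symbol for 90.5% of kept genes. A comparison of protein sequences was not made.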

Additional observations from a re-analysis of the deposited data

How the results depend on the processing

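In esiFLI1 against esiGFP, 342 genes were called, 558 with no filter on low values, 139 with a filter of 5 FPKM, 56 with only the groups compared in the fit and 5125 with the replicate block. Leaving out 1 library gave 2 to 136 without the block, and with it 4310 and 3469 (without esiGFP 1 or 2), 3679 and 2640 (esiFLI1 1 or 2) and 4670 and 4663 (esiUSP9X 1 or 2). Of the matrix genes, 5 were called, 3 with only the groups compared, 0 to 4 with 1 library left out, 8 with the block and 7 or 8 with the block and 1 library left out. In esiUSP9X against esiFLI1, 375 genes were called, 154 with a filter of 5 FPKM, 69 with only the groups compared and 4996 with the block. Leaving out 1 library gave 3 to 148 without the block, and with it 5378 and 5370 (esiGFP), 3623 and 2637 (esiFLI1) and 2724 and 2852 (esiUSP9X); 0 to 5 matrix genes were called without the block and 7 in each blocked fit. In esiUSP9X against esiGFP, 3 genes were called, 3 to 5 with 1 library left out, 29 with the block, and with the block and 1 library left out 211 and 271 (esiGFP), 10 and 9 (esiFLI1) and 16 and 13 (esiUSP9X). The matrix genes called there numbered 0 in all settings but the blocked fits without esiGFP 1 (1, POSTN) or esiGFP 2 (1, FBLN1). Those fits gave every gene of like mean the same spread, and the cause of these shifts was not tested.

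In esiFLI1 against esiGFP, the log2 difference of every member stayed above 0 in each alternative run for it. The lowest was 0.059, for FBLN1 without esiGFP 2. In esiUSP9X against esiGFP, THBS1, THBS2 and FBN2 kept their direction and the other 7 did not. THBS1 and THBS2 had fewer alternatives, with no blocked, quantile-normalized or rescaled fit, so the genes are not compared on equal terms. With 1 library left out the log2 differences ran from -1.03 to 0.55 for POSTN, -0.065 to 0.028 for SPARC, -0.012 to 0.081 for TNC, -1.27 to 0.19 for FBLN1, -0.36 to 0.038 for FBLN5 and -0.13 to 0.044 for MGP. With the replicate block as well, POSTN was at 0.15 (without esiGFP 2) and 0.057 (without esiUSP9X 2), SPARC at 0.00096 (without esiUSP9X 1), TNC at -0.043 (without esiGFP 1), FBN1 at -0.042 (without esiGFP 2) and MGP at 0.056 (without esiUSP9X 2). SPARC was at 0.050 after quantile normalization and 0.032 after rescaling without MIR6723, the most abundant gene. That rescaling moved the median of all genes in esiFLI1 against esiGFP from -0.03 to 0.10, and the 5 calls there stood. Read depth is unknown, which limits what can be said of THBS1, THBS2 and MGP below 1 FPKM.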
